A study of Mus musculus with 28 samples.

Results

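Motile cilia genes of ependymal cells were followed in RNA-seq libraries of 4 brain regions from mice with and without histidine decarboxylase (*Hdc*), the enzyme that makes histamine. The set holds 9 of the 29878 genes in the count tables and was chosen by name: *Foxj1*, *Rsph1*, *Ccdc153*, *Tmem212*, *Dynlrb2*, *Hydin*, *Fam183b*, *Ak7* and *Spag16*. The 28 libraries came from dissected hypothalamus (3 WT, 3 heterozygous and 2 *Hdc*-KO libraries), ventral striatum (3, 3 and 2), dorsal striatum (2, 3 and 2) and motor cortex (1, 2 and 2). Mice of all 3 genotypes were adult males of 2 to 3 months on a C57Bl/6 background, and the *Hdc* knockout is in the germ line, so that every cell type of a mouse carries it. Libraries are named here by the number and letter in their labels, with f for hypothalamus, a for ventral striatum, b for dorsal striatum and d for motor cortex. The numbers run from 1 to 8 (WT 1 to 3, heterozygous 4 to 6, KO 7 and 8), and the labels do not say whether a number stands for a mouse.

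Ependymal cells line the brain ventricles and carry tufts of motile cilia that move cerebrospinal fluid. The core of a motile cilium, the axoneme, is a ring of microtubule doublets around a central pair, with dynein arms that drive bending and radial spokes that relay signals from the central pair to the arms. *Foxj1* encodes the forkhead transcription factor that switches on the genes of motile cilia. *Rsph1* encodes a protein of the radial spoke head, while *Hydin* and *Spag16* encode proteins of the central pair. *Dynlrb2* encodes a dynein light chain of the roadblock family, and *Ak7* an adenylate kinase found in motile ciliated cells. *Ccdc153*, *Tmem212* and *Fam183b* encode proteins whose transcripts mark ependymal and other multiciliated cells. In whole tissue, fewer ependymal cells and less RNA per cell cannot be told apart.

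The genes lie on 7 chromosomes (GRCm38, GENCODE M21 annotation). *Foxj1* is at chr11:116330704-116335399, *Fam183b* at chr11:58792797-58801960, *Rsph1* at chr17:31255019-31277383 and *Tmem212* at chr3:27866066-27896368, all on the minus strand. *Ccdc153* is at chr9:44240676-44247306, *Dynlrb2* at chr8:116504974-116515915, *Hydin* at chr8:110266977-110610253, *Ak7* at chr12:105705976-105782447 and *Spag16* at chr1:69826970-70725132, all on the plus strand. Counts are of reads on exons. *Hydin* has the longest merged exons of the set, with 18037 bases, and *Dynlrb2* the shortest, with 556 bases. *Hydin* shares 237 exon bases with the antisense gene *Gm26832*, which had 4 counts in all libraries together. The library kit does not mark strand, so reads from this stretch cannot be told apart. None of the other 8 genes shares exon bases with another gene.

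RefSeq promoter sequence (GRCm38.p6) was matched for 7 of the 9 genes, *Foxj1* and *Rsph1* being the others. Genes of motile cilia are known as targets of RFX factors, which bind the X-box, and of FOXJ1. GTTGCC, only a part of the X-box, was searched on both strands of the 250 bases before the start site, together with the forkhead core TGTTTAC. The first stood in 5 of the 7 promoters, against 10.4% of 32851 promoters of the same length, and the second in 1 of the 7 (*Ak7*, 131 bases before the start), against 3.17%. *Dynlrb2* (51 bases before the start) and *Ccdc153* (152 bases) each held 1 copy of GTTGCC, and *Tmem212* and *Ak7* held none in this window. Distances are from the RefSeq start. For *Dynlrb2* the window ends at chr8:116505014, inside the gene as placed above (from 116504974). A match is only a run of letters, and no binding was measured here. The 3 promoters below are shown because their copies lie nearest to one another or to the start. They run 5′ to 3′ on the strand of the gene, with each copy of GTTGCC in capitals (GGCAAC is the same motif read on the other strand).
Spag16 (chr1:69826720-69826969, plus strand): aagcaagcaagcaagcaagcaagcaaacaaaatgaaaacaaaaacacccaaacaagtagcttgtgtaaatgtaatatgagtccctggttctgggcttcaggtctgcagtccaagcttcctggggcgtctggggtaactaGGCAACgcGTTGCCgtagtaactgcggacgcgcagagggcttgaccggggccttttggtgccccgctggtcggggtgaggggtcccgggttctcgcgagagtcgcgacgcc
Fam183b (chr11:58801961-58802210, minus strand): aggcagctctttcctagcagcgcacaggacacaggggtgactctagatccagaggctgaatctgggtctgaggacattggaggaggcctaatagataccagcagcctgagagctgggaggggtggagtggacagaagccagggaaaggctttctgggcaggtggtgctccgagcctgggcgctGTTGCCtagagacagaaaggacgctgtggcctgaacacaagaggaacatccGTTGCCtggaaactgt
Hydin (chr8:110266727-110266976, plus strand): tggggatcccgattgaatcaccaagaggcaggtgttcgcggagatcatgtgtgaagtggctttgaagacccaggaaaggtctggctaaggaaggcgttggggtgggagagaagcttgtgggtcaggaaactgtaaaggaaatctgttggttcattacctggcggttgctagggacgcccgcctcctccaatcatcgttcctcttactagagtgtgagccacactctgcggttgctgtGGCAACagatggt

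In the *Spag16* promoter, copies on opposite strands began 111 and 103 bases before the start. In *Fam183b* the copies began 67 and 16 bases before it, and in *Hydin* the single copy began 13 bases before it.

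Libraries held between 3536802 and 5150280 counts on genes (median 4392301). The 9 genes together received between 158 and 382 counts per hypothalamus library, 38 to 67 in the ventral striatum, 16 to 242 in the dorsal striatum and 24 to 52 in the motor cortex. Markers of the dissected regions followed the labels: all 8 hypothalamic markers were higher in the hypothalamus than in each other region, and 6 of 6 striatal spiny neuron markers were lower there than in either striatal region. Cortical neuron markers summed to 553 CPM in the hypothalamus library 8f, against 72.4 in the lowest of that region. In the dorsal striatum the KO library 8b held 3970 CPM of choroid plexus markers, against at most 261 in the other 6. Gene-level counts of *Hdc* do not by themselves check the knockout. In the hypothalamus they were 79 to 111 in WT, 78 to 117 in heterozygous and 54 and 66 in KO libraries. In the other 3 regions they were 0 to 6 in WT, 17 to 33 in heterozygous and 29 to 51 in KO libraries. There the counts thus set WT apart from the other genotypes, with more counts in KO than in WT. The source of these reads was not tested.

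All 9 genes had their highest regional mean in the hypothalamus, and none was at 0 in any of its 8 libraries. Levels are given in CPM, counts divided by the library size as scaled by edgeR's TMM method, with mean ± SD. *Foxj1* lay between 3.31 and 5.21 CPM (median 4.10, mean 4.17 ± 0.726, n = 8). *Rsph1* lay between 3.90 and 8.15 CPM (median 6.45, mean 6.44 ± 1.43, n = 8). *Hydin* lay between 8.77 and 19.9 CPM (median 12.5, mean 13.0 ± 3.24, n = 8). For *Foxj1* the SD was 17.4% of the mean, the smallest share of the set in this region.

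*Fam183b* had nearly the same level as *Hydin*, between 7.60 and 19.4 CPM (median 12.6, mean 13.0 ± 3.50, n = 8). *Ak7* lay between 2.73 and 9.63 CPM (mean 6.99 ± 2.18), *Ccdc153* between 1.56 and 4.77 (mean 3.14 ± 1.01) and *Spag16* between 1.30 and 4.10 (mean 2.21 ± 0.900). *Tmem212* and *Dynlrb2* were the lowest, at 1.49 ± 0.917 and 1.05 ± 0.563 CPM, which rest on 3 to 15 and 3 to 10 counts per library. The heterozygous library 5f had the highest summed level of the 9 genes in any library, 71.1 CPM, and the heterozygous library 6f the lowest of this region, 30.8 CPM. Both extremes thus came from one genotype.

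Per kilobase of merged exons, the order of levels in the hypothalamus differed from that of CPM. *Fam183b* led with 23.0 ± 6.17 CPM per kilobase and did not overlap with any other gene of the set. *Rsph1* followed with 4.70 ± 1.04 and was above *Tmem212* (2.09 ± 1.28) in 8 of 8 libraries, although their ranges overlapped. Next came *Tmem212*, *Dynlrb2* (1.88 ± 1.01), *Ak7* (1.66 ± 0.518), *Foxj1* (1.59 ± 0.277) and *Ccdc153* (1.54 ± 0.496). Among these 5, neighbours in the order did not differ beyond their spread, each being above the next in 3 to 5 of 8 libraries. *Hydin* (0.721 ± 0.180) was below *Ccdc153* in 8 of 8 libraries, and *Spag16* (0.326 ± 0.133) was below *Hydin* in 8 of 8. The genes for the central pair, *Hydin* and *Spag16*, thus had the lowest levels per kilobase. They also have the longest merged exons of the set, 18037 and 6764 bases. Merged exons join all annotated exons of a gene, so a transcript can be shorter than this length, and the order depends on it.

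**Figure D1:**
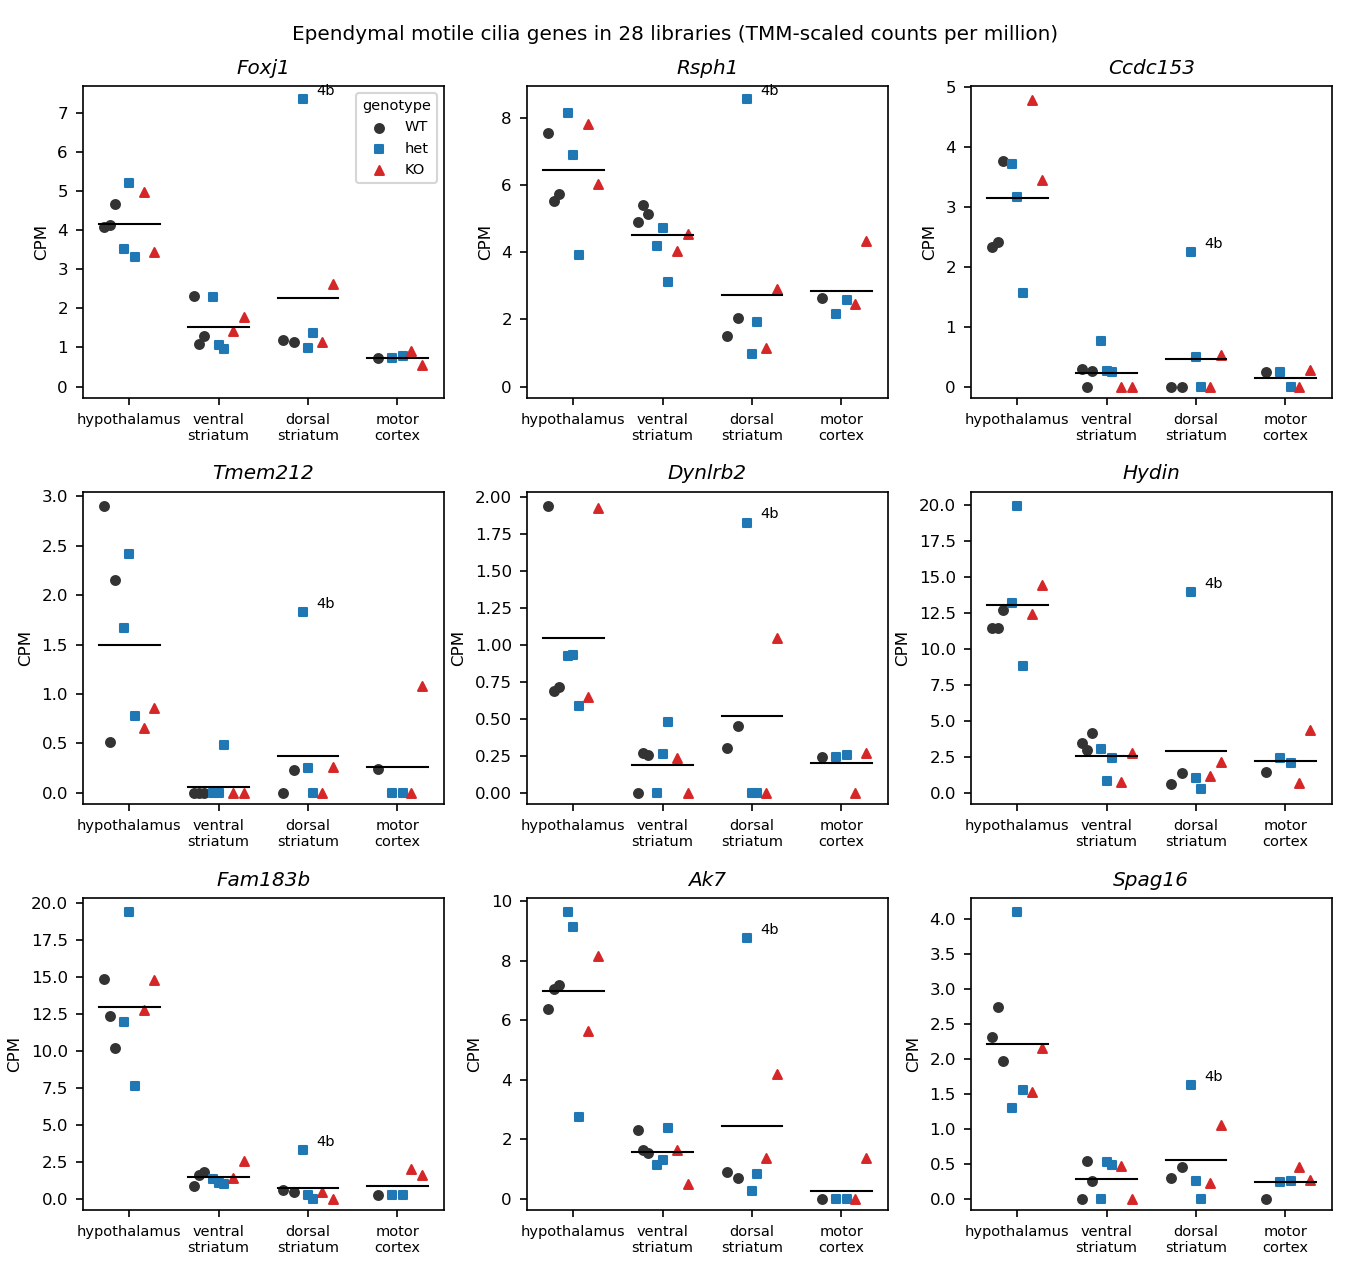
Level of each of the 9 cilia genes in the 28 libraries, in TMM-scaled CPM on a linear axis of its own, by region and genotype (black circles WT, blue squares heterozygous, red triangles KO); each point is a library and black lines are regional means. The hypothalamus libraries lie above nearly all others, and the dorsal striatum library 4b stands apart from the other 6 of its region.

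Regions were compared, with the genotypes weighted equally, in 1 edgeR model that fits 12 groups to all 28 libraries, and p-values carry the Benjamini-Hochberg adjustment for 14979 genes. Against the ventral striatum, 8 of the 9 genes were higher in the hypothalamus, where 23.9% of all genes tested were called higher (43.6% called in either direction). The median log2 fold change of the 9 genes was 2.46, and that of all genes 0.03. *Fam183b* lay between 0.865 and 2.53 CPM (median 1.37) in the 8 ventral striatum libraries, and its log2 fold change was 3.13 ± 0.28 (SE; adjusted p = 4.34e-28, edgeR). *Hydin* lay between 0.709 and 4.11 CPM (median 2.87), with a log2 fold change of 2.46 ± 0.42 (adjusted p = 4.38e-08, edgeR). *Foxj1*, the transcription factor, lay between 0.958 and 2.31 CPM (median 1.35) and differed by 1.43 ± 0.33 (adjusted p = 5.99e-05, edgeR). *Rsph1* was the exception: its ventral striatum libraries lay between 3.11 and 5.39 CPM (median 4.63), overlapping with the hypothalamus, and its difference of 0.54 ± 0.26 missed the threshold (adjusted p = 0.0749, edgeR). It passed with a replicate block (adjusted p = 0.0478), with library size scaling alone (0.0114), with only these regions in the model (0.0103) and without library 6f (0.0335).

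*Ak7* had 2 to 10 counts per library and a log2 fold change of 2.23 ± 0.43 (adjusted p = 1.94e-06, edgeR). The remaining 4 genes had 2 to 9 counts in the 8 ventral striatum libraries together. *Spag16* (9 counts), *Ccdc153* (8 counts), *Dynlrb2* (6 counts) and *Tmem212* (2 counts, both in library 6a) were at 0 in 3, 3, 3 and 7 of the 8 libraries. Pooled over libraries, the ratio of hypothalamus to ventral striatum was 8.06 for *Spag16* (95% counting interval 4.07 to 18.2), 12.7 for *Ccdc153* (6.24 to 30), 5.59 for *Dynlrb2* (2.37 to 16.1) and 24.6 for *Tmem212* (6.52 to 207). These exact intervals cover counting error only. Single libraries moved the fitted fold change of 3 of these genes by over 1.5 times, taken off the log2 scale. On the log2 scale *Tmem212* went from 4.67 to 5.57 without 6a. Without the KO library 7a *Dynlrb2* went from 2.43 to 3.23 and *Spag16* from 2.86 to 3.95. Every hypothalamus library was above every ventral striatum library for 8 of the 9 genes, *Rsph1* again being the exception, and this held for 8.87% of all genes tested.

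Against the dorsal striatum, 8 of the 9 genes were called higher in the hypothalamus, with 30.7% of all genes called higher (56.1% in either direction). The median log2 fold change was 1.92, against 0.04 over all genes. *Fam183b* lay between 0 and 3.26 CPM (median 0.453) in the 7 dorsal striatum libraries and had the largest difference of the set, 4.5 ± 0.35 (adjusted p = 1.53e-36, edgeR). *Rsph1* lay between 0.981 and 8.56 CPM (median 1.91) and was higher in the hypothalamus by 1.41 ± 0.29 (adjusted p = 5.02e-06, edgeR). *Hydin* differed by 2.66 ± 0.46 (adjusted p = 2.34e-08) and *Foxj1* by 1.09 ± 0.34 (adjusted p = 0.00272, edgeR). *Dynlrb2* was not called, with a difference of 1.02 ± 0.56 (adjusted p = 0.11, edgeR).

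The highest dorsal striatum value of each of the 9 genes came from 1 library, the heterozygous 4b. With it, only *Fam183b* had every hypothalamus library above every dorsal striatum library (14.8% of all genes), and without it 7 of the 9 genes did (16.3% of all genes). Without it *Dynlrb2* passed the threshold, at 2.55 on the log2 scale (adjusted p = 0.00048, edgeR), and it did so as well without the KO library 8b (2.42, adjusted p = 0.00884). The other 8 genes stayed called without either library. The median log2 fold change of the 9 genes was 2.71 without 4b and 2.42 without 8b. Without 4b the difference was 3.64 for *Hydin*, 5.52 for *Fam183b*, 2.71 for *Ak7* (1.83 with it) and 2.65 for *Spag16* (1.92). It was 1.60 for *Foxj1* and 1.90 for *Rsph1*, whose fold changes moved by less than 1.5 times off the log2 scale. *Ccdc153* went from 4.01 to 4.63 without 4b and 5.11 without 8b. *Tmem212* went from 2.35 to 3.12 without 4b, 3.16 without 8b and 3.17 without the WT library 2b. *Fam183b* was at 5.58 without the KO library 7b.

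**Figure D2:**
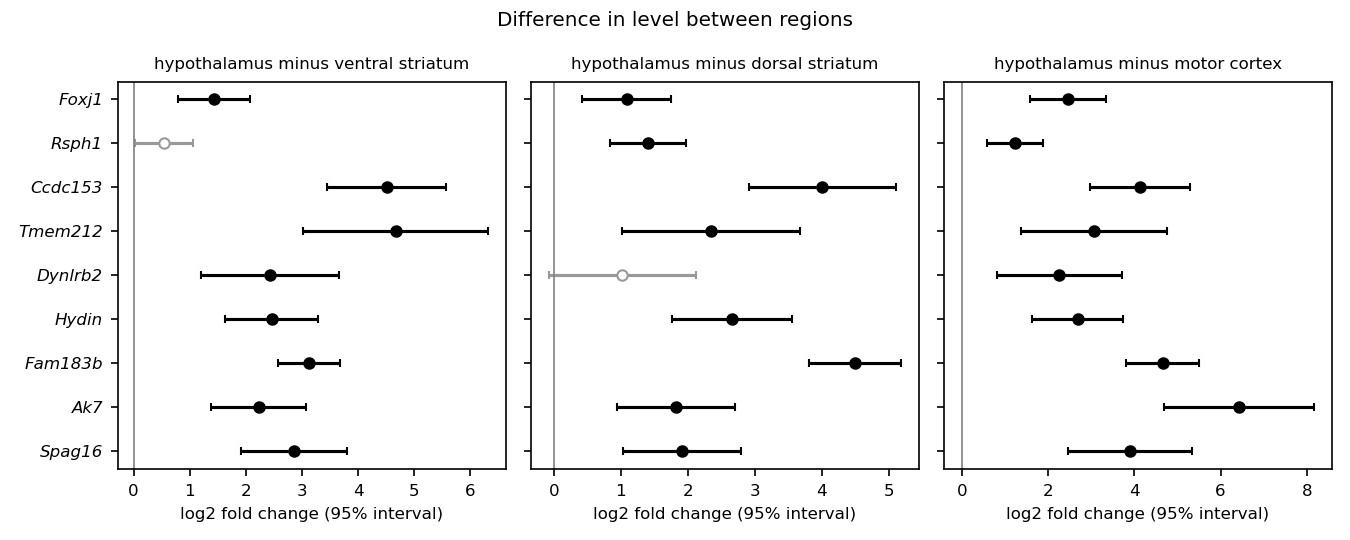
Log2 fold change of each gene in the hypothalamus over each other region, with 95% intervals from the edgeR model; filled points passed the adjusted p threshold and open grey points did not. The points lie above 0 for all 9 genes in each panel, with *Rsph1* against the ventral striatum and *Dynlrb2* against the dorsal striatum not called; the fitted values of genes with groups at 0, such as *Ak7* against the motor cortex, depend on the prior count.

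All 9 genes were called higher in the hypothalamus than in the motor cortex, where 25.4% of all genes were called higher (48.2% in either direction). The WT motor cortex was 1 library. *Foxj1* had 0.721 CPM in the WT library, 0.724 and 0.772 in the heterozygous and 0.896 and 0.541 in the KO libraries, and was higher in the hypothalamus by 2.46 ± 0.45 on the log2 scale (adjusted p = 2.17e-07, edgeR). *Rsph1* had 2.64 CPM in WT, 2.17 and 2.57 in heterozygous and 2.46 and 4.32 in KO libraries, the smallest difference of the set at 1.23 ± 0.33 (adjusted p = 0.000615, edgeR). *Hydin* had 1.44 CPM in WT, 2.41 and 2.06 in heterozygous and 0.672 and 4.32 in KO libraries, a difference of 2.69 ± 0.54 (adjusted p = 3.70e-06, edgeR).

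*Ak7* was at 0 in 4 of the 5 motor cortex libraries, and its 5 counts were all in the KO library 8d. Its pooled ratio of hypothalamus to motor cortex was 28.6 (counting interval 12.1 to 88.7). In a model with additive terms for genotype and region, in which no group mean rests on libraries at 0 alone and which was chosen after seeing the data, the difference of *Ak7* was 4.74 ± 0.69 (adjusted p = 4.93e-11, edgeR). *Ccdc153* had 3 counts in the 5 libraries, *Dynlrb2* 4 and *Tmem212* and *Spag16* 5 each, with pooled ratios of 21.1 (7.08 to 104), 5.24 (1.91 to 20.1), 6.15 (2.50 to 19.6) and 9.07 (3.75 to 28.6). Of the 5 counts of *Tmem212*, 4 were in 8d, and without that library its pooled ratio was 25.1 (4.35 to 1010) and its fitted log2 fold change 4.47 in place of 3.07. Without 8d those of *Ak7* and *Dynlrb2* also moved, from 6.43 to 7.94 and from 2.26 to 3.05, and that of *Ccdc153* went from 4.13 to 4.92 without 8d and 4.94 without the heterozygous library 5d. With the mean log2 CPM of the choroid plexus markers as a covariate, *Tmem212* and *Dynlrb2* were no longer called (adjusted p = 0.299 and 0.301).

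Outside the hypothalamus, 2 of the 9 genes were called in each comparison of regions. Between ventral and dorsal striatum, 2 of 9 genes were called higher ventrally (14.4% of all genes; 29.0% called in either direction): *Fam183b*, by 1.37 ± 0.46 (adjusted p = 0.013), and *Rsph1*, by 0.87 ± 0.31 (adjusted p = 0.0186, edgeR). Without 4b both differences were larger, 2.39 for *Fam183b* and 1.36 for *Rsph1*, and *Fam183b* was at 2.45 without 7b. Without 8b or 8a *Fam183b* was not called (adjusted p = 0.0748 and 0.058), and without 7b or 1b *Rsph1* was not (0.109 and 0.0607). Between ventral striatum and motor cortex, *Ak7* (50 counts in 8 libraries against 5 in 5) and *Fam183b* (1.53 ± 0.55, adjusted p = 0.0156, edgeR) were called higher ventrally, with 22.2% of all genes called higher there (43.7% in either direction). *Fam183b* was not called by the quasi-likelihood test (adjusted p = 0.0833), by DESeq2 (0.0549) or in the additive model (0.79, adjusted p = 0.166, edgeR). Between dorsal striatum and motor cortex, *Ak7* and *Foxj1* were called higher dorsally (21.4% of all genes; 43.4% in either direction). The difference of *Foxj1* was 1.37 ± 0.50 (adjusted p = 0.0169, edgeR), and it was lost without 4b (0.86, adjusted p = 0.113) or without 8b (1.14, adjusted p = 0.0801). The fitted difference of *Ak7* from the motor cortex was 4.2 in the ventral striatum and 4.6 in the dorsal, and without 8d it was 5.74 and 6.13. Without 4b that of the dorsal striatum was 3.72. For 7 genes in each of these 3 comparisons no difference was called.

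The heterozygous dorsal striatum library 4b had the highest level of its region for 9 of 9 genes, and it was the highest for 19.6% of all genes tested. *Foxj1* had 36 counts in it, against 4 to 10 in the other 6 dorsal striatum libraries. *Hydin* had 68 counts against 1 to 8, and *Rsph1* 42 against 4 to 11. *Ak7* had 43 counts against 1 to 16, and *Fam183b* 16 against 0 to 2. *Ccdc153* (11 counts), *Tmem212* (9), *Dynlrb2* (9) and *Spag16* (8) had at most 2, 1, 4 and 4 counts in the others. The 9 genes summed to 49.3 CPM in 4b and to between 4.36 and 14.7 CPM in the other 6, while hypothalamus libraries lay between 30.8 and 71.1.

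Compared with the range of the 8 hypothalamus libraries, *Foxj1* (7.34 CPM) and *Rsph1* (8.56 CPM) in 4b lay above it, and *Hydin* (13.9), *Ak7* (8.76), *Ccdc153* (2.24), *Tmem212* (1.83), *Dynlrb2* (1.83) and *Spag16* (1.63) within it. *Fam183b*, at 3.26 CPM, lay below it. The makeup of the cilia transcripts in 4b thus differed from that in the hypothalamus for this gene: it gave 6.61% of the counts of the 9 genes in 4b (16 of 242, exact 95% interval 3.83 to 10.5%), and between 20.8 and 27.7% in every hypothalamus library. For the other 8 genes the interval in 4b overlapped with the hypothalamus range. The share itself lay above that range for *Foxj1* (14.9%, interval from 10.6%, against 6.23 to 10.8%). It did so too for *Rsph1* (17.4% against 9.69 to 15.3%) and *Dynlrb2* (3.72% against 1.27 to 3.6%, on 9 counts). In the other 6 dorsal striatum libraries together *Fam183b* gave 4.32% of these counts, and in the ventral striatum and motor cortex 11.8 and 11.6%.

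**Figure D3:**
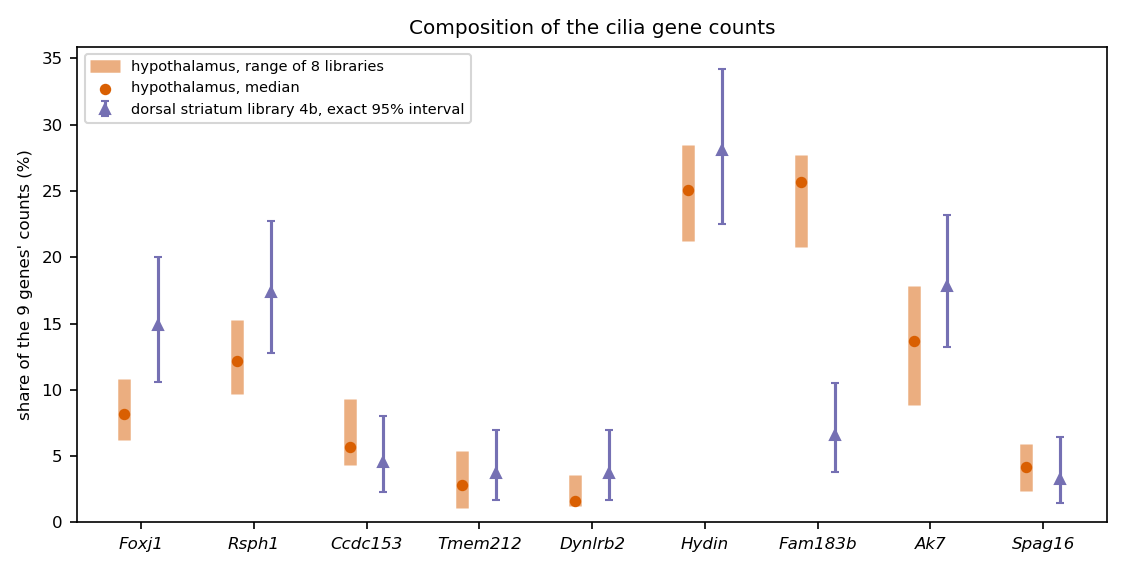
Share of each gene in the summed counts of the 9 cilia genes, in percent; orange bars span the 8 hypothalamus libraries with the median as a point, and triangles give the dorsal striatum library 4b with its exact 95% interval. *Fam183b* made up 6.61% in 4b and at least 20.8% in each hypothalamus library.

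Ependymal genes outside the axoneme and markers of neighbouring tissues in 4b were as follows. *Mia*, *Rarres2* and *Tm4sf1*, expressed by ependymal cells but no part of the cilium, summed to 9.78 CPM in 4b against 4.80 to 7.35 in the other 6. Tanycyte markers (10 genes) summed to 226 CPM against 113 to 184, with 4b the highest for 3 of the 9 tested. The same sum was lower in the hypothalamus, 82.4 to 126 CPM, and 147 to 237 CPM in the ventral striatum. It therefore does not by itself mark tanycytes in 4b. Choroid plexus markers summed to 184 CPM in 4b, within the range of the libraries other than 8b, and 4b was the highest for 0 of 10. Of these markers *Ttr* had 2 counts in 4b (0.408 CPM) and 10311 in 8b (2710 CPM), so other listed genes make up the sum in 4b. The KO library 8b was the highest for 10 of 10 choroid plexus genes and for 0 of the 9 cilia genes, at 14.7 CPM of cilia genes. Hypothalamic neuron markers summed to 7.34 CPM in 4b, against 163 to 269 in the hypothalamus, and striatal spiny neuron markers to 2910, the lowest of the dorsal striatum (others 3030 to 4520). Library 4b also had the lowest share of tallied reads on genes of all libraries, 44.8%, with 8b close at 45.1%. Reads on no annotated exon made up 19.1% of those in 4b and at most 16.1% in any other library. In 4b 18850 genes had a count, against at most 17799 in any other library. The part of any of these in its cilia gene counts was not tested.

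**Figure D4:**
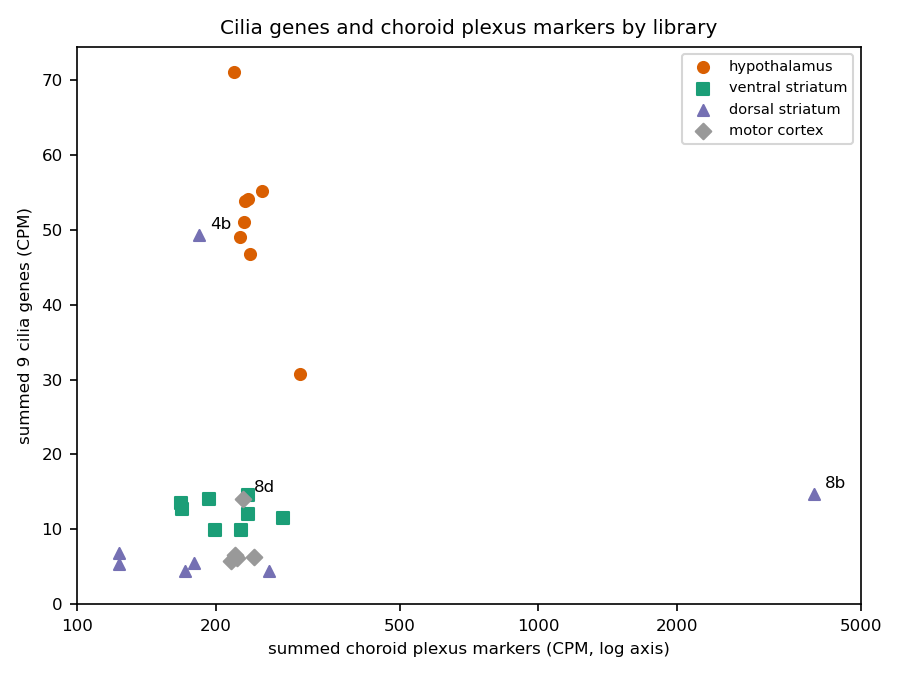
Summed level of the 9 cilia genes against that of 14 choroid plexus markers in each library, in CPM with a log horizontal axis; symbols mark the region. Library 4b (49.3 CPM of cilia genes) lies at the height of the hypothalamus libraries, with 184 CPM of choroid plexus markers. Library 8b (3970 CPM of these) has 14.7 CPM of cilia genes. The marker *Ttr* gave 0.408 CPM of the sum in 4b and 2710 CPM of that in 8b.

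Of 116 further cilia genes in 9 lists by structure, 107 passed the filter, and 46 were higher and 8 lower in the hypothalamus than in the ventral striatum, 58 and 9 against the dorsal striatum and 54 and 8 against the motor cortex. Of all genes tested, 19.7, 25.5 and 22.9% were called lower in the hypothalamus in the same order, beside the 23.9, 30.7 and 25.4% called higher. Without the intraflagellar transport genes, 43, 48 and 48 of 84 were higher, and without the regulators as well, 41, 46 and 45 of 77. Of the inner dynein arm genes, 8, 7 and 11 of 11 were higher against the ventral striatum, dorsal striatum and motor cortex. *Dnah6*, an inner arm heavy chain, had 9.95 ± 1.46 CPM in the hypothalamus (n = 8) and 1.49 ± 0.881 in the ventral striatum, and *Dnah1*, another, 23.2 ± 4.07 and 13.9 ± 1.97. Their log2 fold changes were 2.75 ± 0.41 and 0.75 ± 0.13 (adjusted p = 1.33e-10 and 2.38e-08, edgeR). Among outer arm genes 5, 6 and 5 of 9 were higher. The heavy chains *Dnah9* (log2 fold change 1.82 ± 0.31 over the ventral striatum) and *Dnah5* (2.32 ± 0.30) were higher, while the light chain *Dnal1* was lower against all 3 regions (-0.42, -0.41 and -0.54, with the highest adjusted p = 1.71e-05, edgeR).

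Radial spoke genes were called higher for 5, 8 and 6 of 10 tested, among them *Rsph4a* (1.00 ± 0.28 over the ventral striatum and 2.34 ± 0.33 over the dorsal, adjusted p = 0.00118 and 4.59e-12, edgeR). *Rsph9*, whose product sits in the spoke head with that of *Rsph1*, also missed the threshold against the ventral striatum (0.38 ± 0.17, adjusted p = 0.06) and passed it against the dorsal (1.73 ± 0.22, adjusted p = 1.58e-14, edgeR). Central pair genes were higher for 6, 6 and 8 of 10, such as *Cfap54* (15 ± 1.84 CPM in the hypothalamus and 8.97 ± 1.04 in the ventral striatum) and *Cfap46* (5.35 ± 1.15 and 2.07 ± 1.18). Of 18 genes for proteins inside the microtubule doublets 11, 12 and 9 were higher, and of 10 nexin link and ruler genes 5, 7 and 4. *Cfap126* was higher by 2.41 ± 0.33 over the ventral striatum (adjusted p = 6.46e-12, edgeR).

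Of 9 dynein assembly factors 1, 0 and 2 were higher, and *Lrrc6* was lower in the hypothalamus against all 3 regions (-0.59, -0.85 and -1.06). Of 23 intraflagellar transport genes, which serve primary cilia as well, 3, 10 and 6 were higher. Of all genes tested, 23.9, 30.7 and 25.4% were called higher in the same comparisons. The largest change of the 3 transport genes named was 0.58 ± 0.09 (*Ift22* over the dorsal striatum). Regulators of the multiciliated cell programme were split. *Deup1*, which amplifies centrioles, was higher in the hypothalamus (2.64 ± 0.668 CPM against 0.498 ± 0.279 in the ventral striatum, log2 fold change 2.33 ± 0.33, adjusted p = 3.39e-11, edgeR). *Rfx3* was lower than in the ventral striatum (-1.02 ± 0.09, adjusted p = 5.02e-31) and the dorsal striatum (-0.63 ± 0.09, adjusted p = 1.01e-11, edgeR). *Ccno* and *Mcidas*, also on this list and named after their values were seen, were lower against both as well. *Ccno* had a mean of 0.158 CPM in the hypothalamus and 2.29 and 3.72 in the ventral and dorsal striatum. *Mcidas* had 0.32 against 0.755 and 1.54.

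**Figure D5:**
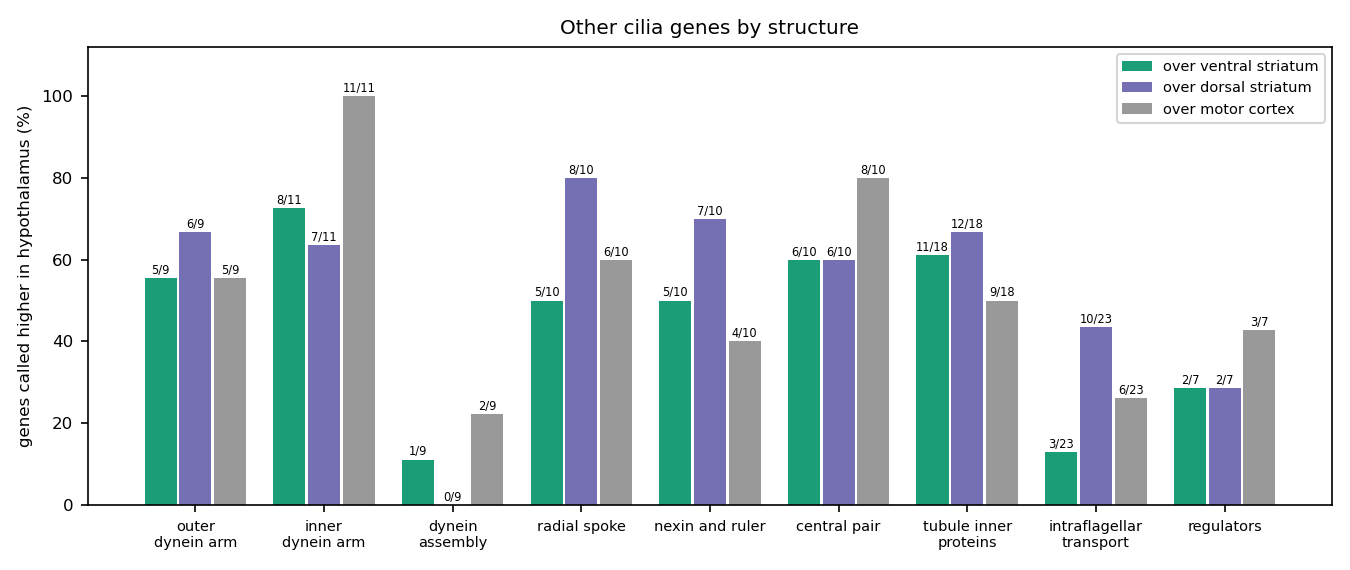
Percent of the genes tested in each cilia list that were called higher in the hypothalamus than in the ventral striatum (green), dorsal striatum (purple) or motor cortex (grey), with the counts above each bar. Dynein arm, radial spoke, central pair and inner doublet lists lie between 40 and 100%, and dynein assembly genes at most at 2 of 9.

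Of 3 ependymal genes outside the axoneme, 2, 3 and 3 were higher. For this and the marker lists below, the shares of all genes called higher were 23.9, 30.7 and 25.4%. Those called lower were 19.7, 25.5 and 22.9%. *Mia* was higher in the hypothalamus than in the ventral striatum by 4.22 ± 0.61 and than in the dorsal striatum by 2.21 ± 0.48 (adjusted p = 3.37e-11 and 1.66e-05, edgeR), and *Tm4sf1* by 0.57 ± 0.14 and 0.43 ± 0.15. *Rarres2* passed against the dorsal striatum (0.93 ± 0.41, adjusted p = 0.0404) but not the ventral (0.80 ± 0.38, adjusted p = 0.0769, edgeR). Astrocyte markers were higher in the hypothalamus too, 7, 8 and 7 of 8, with sums of 1040 to 1240 CPM against 658 to 894 in the other regions, while tanycyte markers were mixed, with 5, 5 and 4 of 9 higher and 3, 3 and 4 lower. Oligodendrocyte markers were higher for 0, 0 and 6 of 6 (median log2 fold change 0.90 against the motor cortex) with 0, 1 and 0 lower, and choroid plexus markers for 2, 2 and 5 of 10 (median 1.38 against the motor cortex) with 0, 2 and 1 lower. Their part in the cilia gene differences was not tested.

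The genotypes were compared within each region. None of the 9 genes was called in any of the 12 genotype comparisons or the 3 comparisons of the KO effect between regions, by edgeR's likelihood ratio test or its quasi-likelihood test. DESeq2 called 0 as well where it gave adjusted p-values, and gave none for any of the 9 in KO against WT and heterozygous against WT in the hypothalamus and dorsal striatum, nor for the hypothalamus against dorsal striatum difference. At an unadjusted p under 0.05 the likelihood ratio test found 5 of the 9 genes in heterozygous against WT dorsal striatum, 2 in KO against heterozygous dorsal striatum, 3 in KO against heterozygous and 1 in KO against WT motor cortex, 1 in KO against heterozygous ventral striatum and 1 in the KO effect compared between ventral and dorsal striatum. Of all 14979 genes it found 1191 and 1089 in these dorsal striatum comparisons and 515 to 652 in the other 4. The quasi-likelihood test found 4 in heterozygous against WT dorsal striatum and DESeq2 3. Among all genes, the share called for KO against WT was 0.167% in the hypothalamus, 0.0801% in the ventral striatum, 0.387% in the dorsal striatum and 0.0334% in the motor cortex. For heterozygous against WT it was 0.0935, 0.0534, 0.0868 and 0.0134% in the same order, and for KO against heterozygous 0.234, 0.0467, 0.461 and 0.00668%. For the KO effect compared between hypothalamus and ventral striatum, hypothalamus and dorsal striatum, and ventral and dorsal striatum it was 0.1, 0.154 and 0.00668%. A count of 0 of 9 is near such a background.

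In the hypothalamus, where the genes were best counted, the genotypes overlapped. *Foxj1* was at 4.07, 4.13 and 4.66 CPM in WT, 3.52, 5.21 and 3.31 in heterozygous and 4.98 and 3.44 in KO libraries. *Hydin* was at 11.4, 11.4 and 12.7 CPM in WT, 13.2, 19.9 and 8.77 in heterozygous and 12.4 and 14.4 in KO libraries. *Fam183b* was at 14.9, 12.4 and 10.2 CPM in WT, 12, 19.4 and 7.60 in heterozygous and 12.8 and 14.8 in KO libraries. The KO libraries of these 3 genes lay within the range of the heterozygous ones. The log2 difference of KO minus WT was -0.03 for *Foxj1* (95% interval -1.03 to 0.97), 0.18 for *Hydin* (-1.15 to 1.5), 0.14 for *Fam183b* (-0.61 to 0.90) and 0.14 for *Rsph1* (-0.71 to 1.00). These intervals, with 2 KO libraries, hold changes of up to their bounds in either direction. *Tmem212* had the widest difference of the 9, 0.755 ± 0.148 CPM in KO and 1.86 ± 1.22 in WT (-1.26, interval -3.06 to 0.55), on 7 and 30 counts. The median over the 9 genes was 0.14.

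In the dorsal striatum the genotype differences turned on single libraries. Heterozygous minus WT was above 0 for 9 of 9 genes with a median of 1.51 on the log2 scale, and without 4b it was above 0 for 2 of 9 with a median of -0.56. *Hydin* was at 0.60 and 1.36 CPM in WT, at 13.9, 0.981 and 0.272 in heterozygous (4b first) and at 1.15 and 2.10 in KO libraries. KO minus WT was above 0 for 7 of 9 genes with a median of 0.65, and without the KO library 8b for 2 of 9 with a median of -0.16. *Ak7*, for example, was at 0.899 and 0.680 CPM in WT and at 1.38 and 4.20 in KO libraries, the latter being 8b. KO minus heterozygous was above 0 for 0 of 9 genes with a median of -0.99, and for 7 of 9 with a median of 0.79 without 4b. *Ccdc153* was at 0 in both WT libraries, so that its fitted differences depend on the prior count. These comparisons share libraries, and none of their single genes passed the threshold.

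In the ventral striatum KO minus WT was above 0 for 2 of 9 genes, with a median of -0.26. *Foxj1* was at 2.31, 1.08 and 1.28 CPM in WT, 2.28, 1.05 and 0.958 in heterozygous and 1.42 and 1.77 in KO libraries, a difference of 0.04 (interval -1.27 to 1.35). *Rsph1*, with 13 to 22 counts per library the best counted there, differed by -0.26 (-1.21 to 0.69). In the motor cortex KO minus WT was above 0 for 7 of 9 genes, with 1 WT library and no replicate check on that side. The KO library 8d had 52 counts on the 9 genes, and the other 4 motor cortex libraries had 24 to 29. *Fam183b* was higher in both KO libraries, at 2.02 (7d) and 1.62 CPM (8d), than in the WT (0.24) and heterozygous libraries (0.241 and 0.257). These values rest on 9 and 6 counts against 1 in each of the others. Its KO minus heterozygous difference was 2.74 (interval 0.92 to 4.57, adjusted p = 0.727, edgeR).

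Of the 107 further cilia genes tested, 1 was called in a genotype comparison. *Dnah5*, an outer dynein arm heavy chain, had 50 counts in 4b, 7 and 8 in the other heterozygous dorsal striatum libraries, 1 and 4 in the WT and 5 and 5 in the KO libraries. Its log2 fold change of heterozygous over WT was 2.87 ± 0.68 (adjusted p = 0.0404, edgeR). Without 4b it was 1.55 (adjusted p = 0.849, edgeR). It was not called without the WT library 1b (2.38, adjusted p = 0.673) or 2b (3.89, adjusted p = 0.0661). Nor was it by the quasi-likelihood test (2.9, adjusted p = 0.328), with only this region in the model (2.85, adjusted p = 0.217) or with the choroid plexus covariate (2.81, adjusted p = 0.155). Its level in 4b was 10.2 CPM, and that in the hypothalamus 7.48 ± 1.58 (n = 8).

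The mean of the 9 genes, on the log2 CPM scale and centred within each region, was compared with every other gene tested over the 28 libraries, which the genes share. The 10 genes with the highest Pearson r were *Wdr66* (r = 0.871), *Dnah10* (0.850), *Fam216b* (0.840), *Cdhr4* (0.828), *Ccdc146* (0.824), *Rsph4a* (0.797), *Cfap65* (0.785), *Ccdc180* (0.777), *Sfrp1* (0.777) and *Dnah11* (0.770). *Wdr66*, *Rsph4a*, *Dnah10* and *Dnah11* were in the radial spoke and dynein arm lists. Spearman's rho lay between 0.584 (*Dnah11*) and 0.827 (*Wdr66*). Without the 2 libraries farthest from the median, 4b and 8d, r was 0.802 for *Wdr66* and between 0.511 and 0.694 for the other 9. *Sfrp1*, a secreted Wnt antagonist, was not highest in the hypothalamus (6.72 CPM, against 9.91 in the ventral striatum), and its r within the hypothalamus was 0.0525.

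Among themselves the 9 genes varied together in part. After centring within regions, the median r of their 36 pairs was 0.58 over 28 libraries, with 36 of 36 above 0. It was 0.313 over the 27 libraries without 4b, 0.405 within the hypothalamus (33 of 36 above 0) and -0.0697 within the ventral striatum (18 of 36 above 0), where most of the genes had few counts. The biological coefficient of variation fitted by edgeR was between 0.267 (*Fam183b*) and 0.549 (*Tmem212*), against a median of 0.106 over all genes tested, whose mean level was higher.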

How the data were processed

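RNA of 28 dissected samples was amplified from 5 ng with a kit that does not mark strand and sequenced as single-end reads of 50 bases. The authors trimmed reads with Trimmomatic 0.32, removed ribosomal reads with Bowtie2 2.2.3, aligned the rest with STAR 2.3.1z8 to GRCm38 (Ensembl 75) and, with SAMtools 0.1.19 and HTSeq 0.6.1p1, counted uniquely mapping reads on exons, with versions per the submitters' processing notes. The deposited values are raw counts per gene, with no normalization. Amplified reads without molecular identifiers are not independent molecules, so counting intervals and shares cover counting error only.

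Rows that name no gene were left out, and 44.8 to 54.2% of tallied reads were on genes. Genes over 1 CPM in at least 2 libraries were kept (14979, the 9 genes among them), scaled by TMM and fitted with edgeR 4.0.16 in R 4.3.3 with 12 group means, 16 residual degrees of freedom and likelihood ratio tests of 21 contrasts. Genes with a Benjamini-Hochberg adjusted p under 0.05 were called. The steps were tested on simulated data. The gene set and the gene lists were chosen with earlier results of these data known. Besides the 9 genes, the text names *Hdc*, the choroid plexus gene *Ttr* and the 3 genes of each list with the highest hypothalamus mean. It also names list genes called between genotypes and the 10 genes with the most similar pattern. No replicates differed by less than sampling noise (chi-square per degree of freedom 1.86 to 14.6). The labels do not say that libraries came from separate mice, so p-values measure the spread between these samples, which may be technical. Alternatives were the quasi-likelihood test, DESeq2 1.42.0, scaling by library size alone, no low-count filter (24788 genes), only the regions compared, a choroid plexus covariate, the library number as a block, and leaving out each library.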

Additional observations from a re-analysis of the deposited data

Results flagged for a closer look

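In 12 of 36 sets of 1 gene in 1 region (5 to 8 libraries), the highest or lowest library lay apart from the rest by Dixon's criterion, and chance gives about 1 in 20 for normally distributed values. That rate was not measured for low counts with ties, which several of these sets hold. Of these, 6 were the dorsal striatum library 4b, where *Foxj1* was at 7.34 CPM, *Rsph1* at 8.56, *Ccdc153* at 2.24, *Tmem212* at 1.83, *Hydin* at 13.9 and *Fam183b* at 3.26. The other 6 dorsal striatum libraries reached at most 2.62, 2.89, 0.525, 0.262, 2.10 and 0.60 CPM for these genes. In the motor cortex the KO library 8d stood apart for *Rsph1* (4.32 CPM, others 2.17 to 2.64), *Tmem212* (1.08, others 0 to 0.240) and *Ak7* (1.35, others 0). *Dynlrb2* was at 0 in the motor cortex library 7d and between 0.240 and 0.270 CPM, 1 count each, in the others. In the ventral striatum, *Ccdc153* reached 0.759 CPM in library 4a (4 counts) and *Tmem212* 0.479 CPM in library 6a (2 counts). The same genes had at most 0.288 and 0 CPM in the other 7 ventral striatum libraries.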

How the results depend on the processing

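The comparisons of the hypothalamus with the other regions kept their direction under every alternative run. Leaving out 1 library at a time gave 8 to 9 genes against the ventral striatum, 8 to 9 against the dorsal striatum and 9 against the motor cortex. Between ventral and dorsal striatum, 2 genes were called in the report, 1 by the quasi-likelihood test, 1 with additive terms (chosen after seeing the data) and 1 to 3 without single libraries. It was 1 without 7b, 8b, 8a or 1b. Between ventral striatum and motor cortex, 2 genes became 1 by the quasi-likelihood test, 1 by DESeq2, 1 with additive terms and 4 with only these regions in the model. Between dorsal striatum and motor cortex, 2 genes became 1 to 2 without single libraries, with 1 without 4b or 8b. The cause of these changes was not tested.

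Same-numbered libraries did not deviate together (34 pairs, r -0.08 to 0.09). These pairs are of different dissections, so the correlations cannot show whether a number stands for a mouse. With the replicate block, 9, 8 and 9 genes were called for the hypothalamus against ventral striatum, dorsal striatum and motor cortex, 2, 2 and 1 between the others, and 44, 48 and 46 of the 84 further cilia genes outside the transport list were higher in the hypothalamus. *Foxj1* between dorsal striatum and motor cortex was then not called (adjusted p = 0.0707, edgeR). Scaling by library size alone moved the median over all genes, on the log2 scale, to 0.24, 0.41 and 0.28 in the hypothalamus comparisons (0.03, 0.04 and 0.05 with TMM), and called *Dynlrb2* against the dorsal striatum (1.34, adjusted p = 0.0239, edgeR). Single values rest on few counts: *Tmem212* had 2 counts in the whole ventral striatum. Comparisons without the only WT motor cortex library could not be fitted.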

Other observations

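Of 9285 genes with at least 30 counts in library 4b, the 12 with the largest ratio to the highest other dorsal striatum library were read after the values were seen. Cilia genes among them were *Hydin*, *Dnah5*, *Dnah10*, *Dnah6*, *Rsph1*, *Foxj1* and *Cfap44*. The other 5 were *Mki67*, *Top2a*, *Cdca7*, *Cd24a* and *Col6a5*. *Mki67*, a marker of proliferation, was at 15.3 CPM in 4b, 1.96 to 4.46 in the other 6 dorsal striatum libraries and 1.62 ± 1.76 in the hypothalamus (n = 8). *Top2a*, a topoisomerase of dividing cells, was at 7.34 CPM, against 0.230 to 1.84 and 0.597 ± 0.225. *Cdca7* was at 7.34 CPM, against 0.817 to 2.49 and 1.39 ± 0.416. *Cd24a*, a surface protein found on ependymal cells and neuroblasts, was at 14.3 CPM, against 2.62 to 4.08 and 11.7 ± 1.86. *Col6a5*, a collagen VI chain, was at 6.32 CPM, against 0.30 to 1.59 and 1.56 ± 0.768. All 5 were above the hypothalamus mean in 4b, and these values come from 1 library with no replicate.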
